A study of Mus musculus with 2 samples.

Results

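Interferon-inducible genes were followed in cultured mouse splenic B cells that carried or lacked Nedd4, a ubiquitin ligase of the HECT class. The 40 genes were chosen by name from the 23288 genes measured, 1 RefSeq transcript each, and all 40 were found in both libraries. They cover the transcription factors of the interferon response, the sensors and enzymes that act on foreign nucleic acid, and the antiviral proteins made last. RNA came from 1 Nedd4-/- library and 1 Nedd4+/+ library. The mice of both genotypes were fetal liver chimeras, animals whose blood cells grow from transplanted fetal liver, on a mixed B6 and 129 background crossed back to B6. Both cultures lasted 72 hours in interleukin 4 and lipopolysaccharide (LPS), a component of bacterial walls, which together activate B cells and drive switching to IgG1. The make-up of the Nedd4 allele, the number of mice and the host cells left in the chimeras are not stated in the labels. Levels are given as RPKM, that is reads divided by transcript length and by the reads mapped in the library, from RNA depleted of ribosomal RNA. With 1 library per genotype there is no replicate check and no test, so the values below compare these libraries and not the genotypes.

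Type I interferons bind the receptor made of IFNAR1 and IFNAR2, whose kinases JAK1 and TYK2 phosphorylate STAT2 and other STAT proteins. A complex with STAT2 and IRF9 binds the interferon-stimulated response element (ISRE) in promoters, while interferon gamma acts on the gamma-activated site (GAS) and induces IRF1. LPS can start the same programme through TLR4, the adaptor TICAM1 and IRF3, which induce interferon beta. ISG15, a small protein of this programme that is attached to other proteins much like ubiquitin, has been reported to bind NEDD4 and block its ligase activity in human cells.

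The promoters show which members carry the letters of these elements. RefSeq promoters of build GRCm38.p6, from 250 bases before to 50 after the annotated start, were at hand for 30 of the 40 members. The ISRE core, GAAA and GAAA with any 2 bases between them, was searched on both strands with overlapping matches counted, and 13 of the 30 members (43.3%) had it, against 3.99% of all 27025 genes in the promoter table. Below are the stretches around the matches of the 8 members with the highest mean level among the 13, with 15 bases on each side where the window allows, 5′ to 3′ on the strand of the gene and with the matches in capitals.
Gbp2 (chr3:142620589-142620628, plus strand): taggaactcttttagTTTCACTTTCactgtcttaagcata
Bst2 (chr8:71537572-71537617, minus strand): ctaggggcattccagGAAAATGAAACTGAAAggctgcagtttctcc
Isg15 (chr4:156200860-156200911, minus strand): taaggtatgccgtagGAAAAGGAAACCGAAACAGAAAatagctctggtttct
Gbp3 (chr3:142559984-142560029, plus strand): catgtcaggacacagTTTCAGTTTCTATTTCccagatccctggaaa
Ifih1 (chr2:62646206-62646238, minus strand): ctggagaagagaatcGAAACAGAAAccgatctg
Eif2ak2 (chr17:78882530-78882569, minus strand): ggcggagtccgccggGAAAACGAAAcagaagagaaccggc
Ddx58 (chr4:40239799-40239838, minus strand): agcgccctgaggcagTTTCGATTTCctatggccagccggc
Stat2 (chr10:128270261-128270300, plus strand): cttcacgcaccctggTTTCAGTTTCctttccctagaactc
Isg15 had 3 overlapping matches, the first starting 78 bases before the annotated start. Bst2 and Gbp3 had a pair of overlapping matches each. Those of Ifih1, Eif2ak2 and Ddx58 lay just after the annotated start, at 33, 19 and 3 bases. Oas1a, Oas3, Ifit1, Ifit3 and Rsad2, not shown, also had a match. A match describes letters and does not show that a factor binds there.

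Nedd4 itself was at 1.95 RPKM in the Nedd4-/- library, against 7.59 RPKM in the Nedd4+/+ library. Depth was 6.17 gigabases for Nedd4-/- and 8.40 gigabases for Nedd4+/+, of which 24.3% in Nedd4-/- and 32.5% in Nedd4+/+ lay in transcripts of known length. The median log2 ratio of the 9405 genes averaging at least 1 RPKM was -0.31, and the central 90% lay between -0.74 and 0.06. Here and below, a log2 ratio is log2((Nedd4-/- + 1)/(Nedd4+/+ + 1)) in RPKM, which understates the difference of low genes, and a relative ratio is that value minus the median of -0.31. All 10 B cell markers, such as Ms4a1 and Cd79a, were above 5 RPKM in both libraries. Of the 8 markers of plasmacytoid dendritic cells, the main makers of interferon, 7 were under 1 RPKM in the Nedd4-/- library and 6 in the Nedd4+/+ library, with sums of 3.43 RPKM in Nedd4-/- and 3.36 RPKM in Nedd4+/+ and none at 0. The 11 myeloid markers summed to 5.22 RPKM in the Nedd4-/- library and 3.36 RPKM in the Nedd4+/+ library, the 10 T cell markers to 5.84 RPKM in Nedd4-/- and 8.55 RPKM in Nedd4+/+, and none was at 0. Without Cd2 the other 9 T cell markers summed to 3.61 RPKM in Nedd4-/- and 2.59 RPKM in Nedd4+/+, the opposite direction. The libraries also differed in sex-linked RNA, since Xist was at 0.0958 RPKM in the Nedd4-/- library and 23.7 RPKM in the Nedd4+/+ library. The Nedd4+/+ library held Y-linked RNA too, at 24.8% to 31.0% of the levels in the Nedd4-/- library for 4 genes. Sex and genotype cannot be told apart in any difference given here, and the part of other cells was not tested.

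Of the 30 members averaging at least 1 RPKM, 27 were below 0 on the log2 ratio (90%), where 92.7% of all 9405 genes were, and 23 of the 30 lay below the median of all genes. These 30 ran from 0.886 to 37.4 RPKM in the Nedd4-/- library (median 5.95) and from 1.11 to 78.0 RPKM in the Nedd4+/+ library (median 8.46). Of these, 3 were at least 2-fold lower on the log2 ratio (10%), Zbp1, Pml and Ifi27l2a, where 1.15% of all 9405 genes were. None was at least 2-fold higher, where 0.138% of all genes were. The members and thresholds were chosen with earlier results of these data known, so comparisons of members with all genes are no independent test. By plain level, without pseudocount, Isg20 and Ddx58 were also past 2-fold, at 2.18-fold and 2.17-fold higher in Nedd4+/+. The share of all genes past 2-fold by plain level was not computed. The median log2 ratio of the 30 was -0.52, or -0.21 relative to all genes. A log2 ratio above 0 was found for 3 of the 30 (10%), Ifih1, Oasl1 and Ifit1, where 7.32% of all genes were above 0. Relative to the median of all genes, 0 members were 2-fold lower and 0 were 2-fold higher, where 0.223% of all genes were lower and 0.276% higher. In RNA from a whole culture, fewer cells that express a gene and less RNA per cell cannot be told apart.

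Of the 30 members, 22 lay inside the central 90% of all genes, a smaller share than among all genes. Zbp1, Pml, Ifi27l2a, Isg20 and Ddx58 were below that band and Ifih1, Oasl1 and Ifit1 above it. Since ratios move with level, members were set beside all genes of like level. For means between 1 and 5 RPKM the median log2 ratio was -0.49 over 9 members and -0.25 over all 4702 genes. Between 5 and 10 RPKM it was -0.51 over 12 members and -0.36 over all 2290 genes. At 10 RPKM or more it was -0.61 over 9 members and -0.40 over all 2413 genes. The members lay lower in each of these bands.

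**Figure D1:**
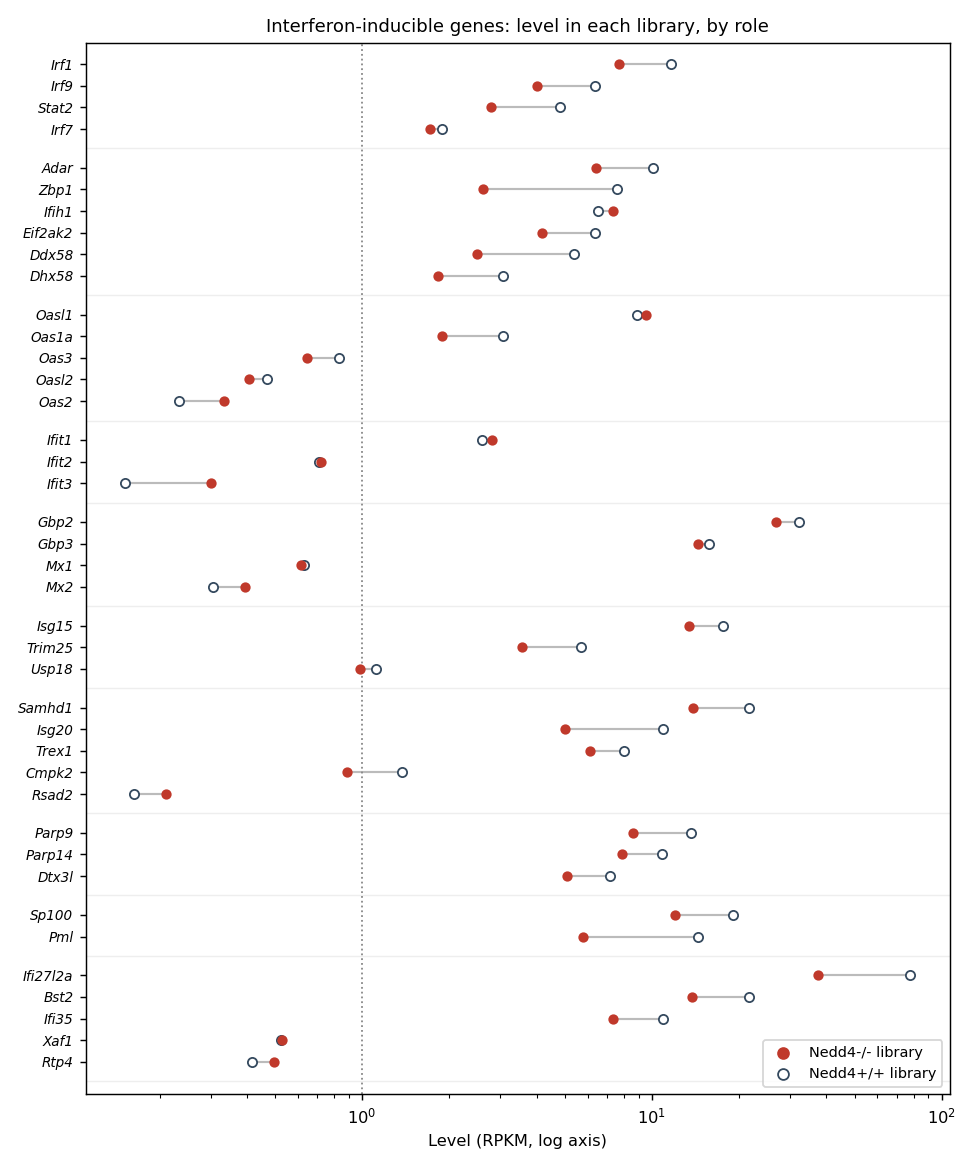
Level of each of the 40 genes in RPKM (log axis) in the Nedd4-/- library (filled) and the Nedd4+/+ library (open), grouped by role, 1 library each. Open points lie to the right for most genes above the dotted line at 1 RPKM, with Ifih1, Oasl1 and Ifit1 the other way round, and below the line the points lie close or cross.

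Among the transcription factors, all 4 were below 0 and 3 lay below the median of all genes. Irf1, a factor induced by interferon gamma, was at 7.69 RPKM in the Nedd4-/- library and 11.6 RPKM in the Nedd4+/+ library, or a log2 ratio of -0.54. Irf9, which gives its complex with STAT2 the DNA binding, was at 4.0 RPKM in Nedd4-/- and 6.36 RPKM in Nedd4+/+ (-0.56). Stat2 was at 2.78 RPKM in the Nedd4-/- library and 4.83 RPKM in the Nedd4+/+ library (-0.62). Irf7, the factor that amplifies interferon alpha production, stood apart from these 3, at 1.71 RPKM in the Nedd4-/- library and 1.88 RPKM in the Nedd4+/+ library. Its log2 ratio of -0.09 was above the median of all genes, and the counting interval of the plain level ratio, without pseudocount, ran from -0.49 to 0.21. Such intervals are exact Clopper-Pearson 95% intervals of the read pairs on the log2 scale and cover counting error only. Because the log2 ratio adds 1 RPKM to each level, it may lie outside them, as it did for Ddx58 and Pml. These counting intervals lay wholly below 0 for 25 of the 30 members and wholly above 0 for Ifih1. They spanned 0 for Irf7, Oasl1, Ifit1 and Usp18. The share of all genes with such intervals was not computed, but 92.7% of all 9405 genes were below 0 on the log2 ratio. An interval below 0 therefore does not set a member apart from all genes.

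The nucleic acid sensors held both the lowest and the highest ratio of the 30 members. Zbp1, a sensor of left-handed nucleic acid that can start necroptosis, was at 2.62 RPKM in the Nedd4-/- library and 7.57 RPKM in the Nedd4+/+ library, a level 2.89-fold higher in Nedd4+/+. Its log2 ratio of -1.24 (counting interval -1.96 to -1.12) was the lowest of the 30 members and rank 29 from the lowest among all 9405 genes. Ddx58, which encodes the RNA sensor RIG-I, was at 2.49 RPKM in the Nedd4-/- library and 5.40 RPKM in the Nedd4+/+ library, or a log2 ratio of -0.87 (counting interval -1.31 to -0.92). Its relative Ifih1, which encodes the long-RNA sensor MDA5, was the member with the highest ratio. Ifih1 was at 7.33 RPKM in the Nedd4-/- library and 6.49 RPKM in the Nedd4+/+ library, or a log2 ratio of 0.15 (counting interval 0.06 to 0.29). Both have an ISRE match shortly after the annotated start, in the stretches given above. Dhx58, which encodes LGP2, the partner of both sensors, was at 1.83 RPKM in the Nedd4-/- library and 3.07 RPKM in the Nedd4+/+ library (-0.52). Eif2ak2, the kinase PKR that halts translation on double-stranded RNA, was at 4.17 RPKM in the Nedd4-/- library and 6.34 RPKM in the Nedd4+/+ library (-0.51). Adar, the enzyme that edits adenosine in double-stranded RNA, was at 6.39 RPKM in the Nedd4-/- library and 10.1 RPKM in the Nedd4+/+ library (-0.58). Of the 6 sensors, 5 thus were under the median of all genes and Ifih1 above it.

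The PML nuclear body genes were lower as a pair. Pml, the scaffold of these bodies, was at 5.77 RPKM in the Nedd4-/- library and 14.5 RPKM in the Nedd4+/+ library, a level 2.51-fold higher in Nedd4+/+. The log2 ratio was -1.19, or -0.88 relative to all genes, with a counting interval from -1.44 to -1.21. Sp100, a resident of the same bodies, was at 12 RPKM in the Nedd4-/- library and 19.1 RPKM in the Nedd4+/+ library. Its log2 ratio was -0.63, or -0.32 relative to all genes. The promoter of Pml, the only gene of the 3 past the 2-fold rule with an entry in the promoter table, held neither the ISRE core nor the GAS letters TTCNNNGAA in this window, and is printed whole for that reason.
Pml (chr9:58249737-58250036, minus strand): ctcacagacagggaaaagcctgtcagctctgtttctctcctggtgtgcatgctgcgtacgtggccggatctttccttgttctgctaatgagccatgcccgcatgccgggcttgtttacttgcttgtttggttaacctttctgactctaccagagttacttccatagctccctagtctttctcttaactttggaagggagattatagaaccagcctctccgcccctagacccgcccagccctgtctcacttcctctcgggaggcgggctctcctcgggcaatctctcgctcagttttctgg

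The 4 nucleases and enzymes of nucleotide supply averaging at least 1 RPKM lay below the median of all genes, Trex1 and Cmpk2 only just, at relative log2 ratios of -0.03 and -0.02. Isg20, an exonuclease that degrades RNA, was just outside the 2-fold rule at 5.0 RPKM in the Nedd4-/- library and 10.9 RPKM in the Nedd4+/+ library (log2 ratio -0.99, counting interval -1.42 to -0.83). Samhd1, which breaks down deoxynucleotides, was at 13.9 RPKM in the Nedd4-/- library and 21.6 RPKM in the Nedd4+/+ library (-0.61). Trex1, a DNA exonuclease, was at 6.13 RPKM in the Nedd4-/- library and 8.02 RPKM in the Nedd4+/+ library (-0.34). Atrip reaches over exons of Trex1 on the same strand, so the reads of Trex1 may in part be those of Atrip. Cmpk2, a mitochondrial nucleotide kinase, was at 0.886 RPKM in the Nedd4-/- library and 1.38 RPKM in the Nedd4+/+ library (-0.33). The members nearest to the 2-fold rule were Ifi27l2a, Pml and Zbp1 inside it, at -1.04, -1.19 and -1.24, and Isg20, Ddx58 and Sp100 outside it, at -0.99, -0.87 and -0.63.

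Of the genes of protein ADP-ribosylation, Parp9 was at a relative log2 ratio of -0.29. Dtx3l and Parp14 lay closer to the median of all genes, at relative log2 ratios of -0.11 and -0.10. Parp9 was at 8.60 RPKM in the Nedd4-/- library and 13.6 RPKM in the Nedd4+/+ library (-0.61). Its partner Dtx3l, a ubiquitin ligase that forms a complex with PARP9, was at 5.08 RPKM in the Nedd4-/- library and 7.17 RPKM in the Nedd4+/+ library (-0.43). Parp14 was at 7.88 RPKM in the Nedd4-/- library and 10.8 RPKM in the Nedd4+/+ library (-0.41). Parp9 and Dtx3l are neighbours on opposite strands, each reaching over exons of the other. The strand setting of the counting is not given in the sources used here, so reads of the overlap cannot be told apart. The same holds for Irf7 and Phrf1. Irf1, Dhx58, Eif2ak2, Adar, Oasl1, Usp18, Sp100 and Ifi35 also have exons reached by a gene on the opposite strand, and Parp14 by Gm49730 on the same strand.

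In the ISG15 system, 2 of 3 members lay below the median of all genes. Isg15 was at 13.4 RPKM in the Nedd4-/- library and 17.5 RPKM in the Nedd4+/+ library, or a log2 ratio of -0.36, or -0.05 relative to all genes (counting interval -0.59 to -0.18). Usp18, the protease that takes ISG15 off proteins and damps the interferon receptor, was at 0.985 RPKM in the Nedd4-/- library and 1.11 RPKM in the Nedd4+/+ library (-0.09, counting interval -0.70 to 0.34). Trim25, a ubiquitin ligase that activates RIG-I in human cells, was at 3.57 RPKM in the Nedd4-/- library and 5.68 RPKM in the Nedd4+/+ library (-0.55). The enzymes that attach ISG15, from the list outside the members, were Uba7 at 4.26 RPKM in the Nedd4-/- library and 5.51 RPKM in the Nedd4+/+ library (-0.31), and Herc6 at 2.10 RPKM in Nedd4-/- and 2.60 RPKM in Nedd4+/+ (-0.22). Ube2l6 was under 1 RPKM in both.

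Effectors that block viral RNA or release were partly well expressed and partly under 1 RPKM. Gbp2 and Gbp3, guanylate-binding GTPases, were well expressed and, of the 4 GTPases chosen, the only ones averaging at least 1 RPKM. Gbp2 was at 26.8 RPKM in the Nedd4-/- library and 32.0 RPKM in the Nedd4+/+ library (-0.25). Gbp3 was at 14.4 RPKM in the Nedd4-/- library and 15.7 RPKM in the Nedd4+/+ library (-0.12), and both lay above the median of all genes, so their sign turns positive relative to it. Ifi27l2a, a gene of the Ifi27 family of small hydrophobic proteins, had the highest level of the 40, at 37.4 RPKM in the Nedd4-/- library and 78.0 RPKM in the Nedd4+/+ library. Its log2 ratio was -1.04, or -0.73 relative to all genes (counting interval -1.20 to -0.91). Bst2, which encodes tetherin, the protein that holds budding virus at the cell surface, was at 13.7 RPKM in the Nedd4-/- library and 21.6 RPKM in the Nedd4+/+ library (-0.62). Ifi35 was at 7.33 RPKM in the Nedd4-/- library and 10.9 RPKM in the Nedd4+/+ library (-0.52).

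Oasl1, Oas1a and Ifit1 complete the members averaging at least 1 RPKM. Oasl1, an inhibitor of Irf7 translation in mice, was at 9.51 RPKM in the Nedd4-/- library and 8.89 RPKM in the Nedd4+/+ library (0.09, counting interval -0.06 to 0.25). Ifit1, which binds foreign RNA caps, was at 2.81 RPKM in the Nedd4-/- library and 2.59 RPKM in the Nedd4+/+ library (0.09, counting interval -0.14 to 0.37). Oas1a, a synthetase of the second messenger that activates RNase L, was at 1.89 RPKM in the Nedd4-/- library and 3.06 RPKM in the Nedd4+/+ library (-0.49). The Oas1, Ifit, Mx, Gbp and Ifi27 genes are families of close copies, so reads may be shared between relatives.

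**Figure D2:**
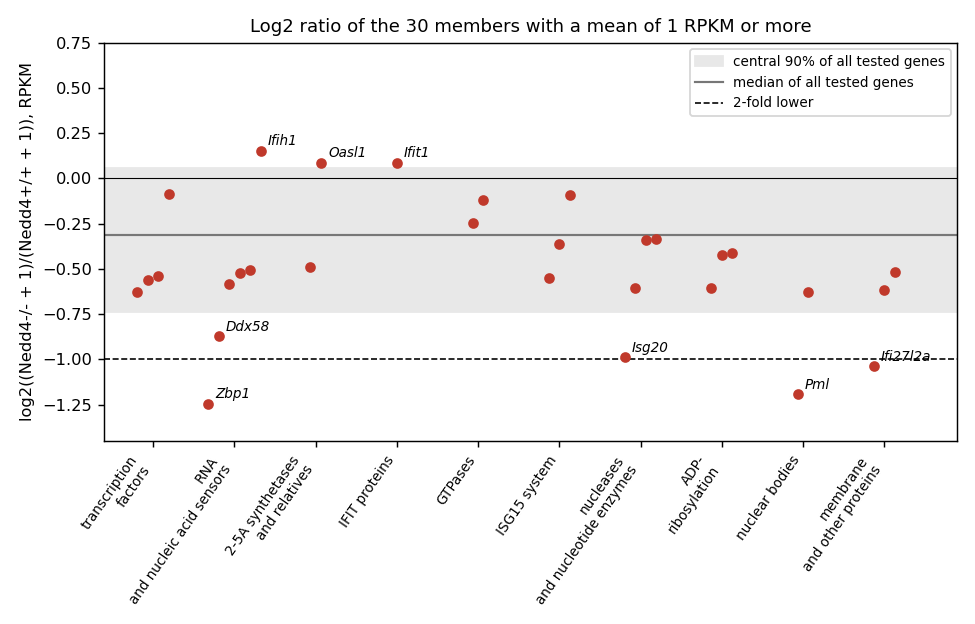
Log2 ratio of the 30 members averaging at least 1 RPKM, by role, 1 point per gene. The grey band holds the central 90% of all 9405 genes around their median of -0.31, the dashed line marks 2-fold lower, and Zbp1, Pml and Ifi27l2a lie below that line while Ifih1, Oasl1 and Ifit1 lie above the band.

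The remaining 10 members, among them genes that are strongly induced in cells treated with type I interferon, stayed under a mean of 1 RPKM. They were Ifit2, Ifit3, Mx1, Mx2, Oas2, Oas3, Oasl2, Rsad2, Xaf1 and Rtp4, and ran from 0.210 to 0.720 RPKM in the Nedd4-/- library and from 0.152 to 0.830 RPKM in the Nedd4+/+ library. Ifit2 was at 0.720 RPKM in the Nedd4-/- library and 0.709 RPKM in the Nedd4+/+ library. Rsad2, which encodes viperin, an enzyme that makes a chain-ending nucleotide, was the lowest in the Nedd4-/- library, at 0.210 RPKM, against 0.164 RPKM in the Nedd4+/+ library. Oas3 was at 0.644 RPKM in the Nedd4-/- library and 0.830 RPKM in the Nedd4+/+ library. Mx1, a GTPase that blocks influenza virus in mice with an intact allele, was at 0.617 RPKM in the Nedd4-/- library and 0.630 RPKM in the Nedd4+/+ library. Ifit3 was at 0.301 RPKM in Nedd4-/- and 0.152 RPKM in Nedd4+/+, Oasl2 at 0.407 RPKM in Nedd4-/- and 0.470 RPKM in Nedd4+/+, Xaf1 at 0.530 RPKM in Nedd4-/- and 0.527 RPKM in Nedd4+/+, and Rtp4 at 0.496 RPKM in Nedd4-/- and 0.416 RPKM in Nedd4+/+. The log2 ratios of the 10 lay between -0.15 and 0.17, with 7 of 10 above 0. Across all 11198 genes with a mean between 0.1 and 1 RPKM, the median log2 ratio was 0.15 and 84.8% were above 0.

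The kb upstream of each gene gave a second readout from the same libraries. In the Nedd4-/- library, 6 of the 10 low members (Oas2, Oas3, Oasl2, Ifit3, Mx2 and Xaf1) had a gene level less than 2 times that of their own upstream kb. In the Nedd4+/+ library 0 of the 10 did. Of all 11198 genes averaging between 0.1 and 1 RPKM, 67.3% did in the Nedd4-/- library and 58.5% in the Nedd4+/+ library. The median upstream level over all genes was 0.267 RPKM in the Nedd4-/- library and 0.134 RPKM in the Nedd4+/+ library. Mx2 was at 0.395 RPKM with 0.378 RPKM upstream in the Nedd4-/- library, and at 0.306 RPKM with 0.101 RPKM upstream in the Nedd4+/+ library. Oas2 was at 0.333 RPKM with 0.317 RPKM upstream in the Nedd4-/- library, and at 0.234 RPKM with 0.0524 RPKM upstream in the Nedd4+/+ library. The higher levels of Mx2 and Oas2 in the Nedd4-/- library stood beside higher upstream levels, and the part of these in the gene levels was not tested. Among the 30 members of 1 RPKM or more, Dhx58 alone was under that ratio, in both libraries, and its upstream kb reaches Kat2a.

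**Figure D3:**
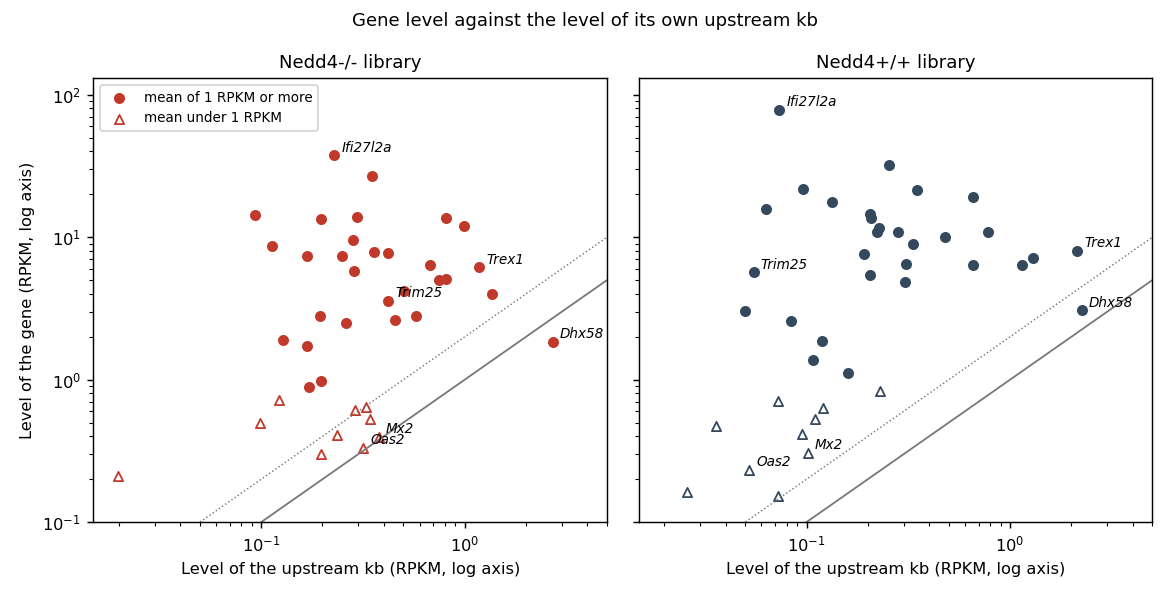
Level of each of the 40 genes against the level of its own upstream kb (RPKM, both log axes) in the Nedd4-/- library (left) and the Nedd4+/+ library (right), 1 library each. The solid line marks equal levels and the dotted line a gene level 2 times the upstream level, and 6 of the low members (triangles) lie under the dotted line in the Nedd4-/- library and none in the Nedd4+/+ library.

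Upstream windows of the members were mostly higher in the Nedd4-/- library, as were those of all genes. Window ratios are log2 with 0.1 RPKM added, over windows averaging at least 0.2 RPKM, which 23 of the 40 members had. Of these, 4 were at least 2-fold higher (17.4%), Trim25, Mx2, Xaf1 and Bst2, where 19.8% of all 11837 windows were. None was at least 2-fold lower, where 0.794% of all windows were. A ratio above 0 was found for 17 of 23 (73.9%), where 71.2% of all windows were above 0. The median was 0.34 over the members and 0.41 over all windows, and the shares of members lay close to those of all windows. Relative to the median of all windows, 1 was 2-fold higher, where 6.5% of all windows were, and 2 were 2-fold lower, where 5.68% were.

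A few windows stood out among the members. The window of Trim25 was at 0.419 RPKM in the Nedd4-/- library and 0.0549 RPKM in the Nedd4+/+ library, while the gene itself was lower in Nedd4-/-. The window of Bst2 was at 0.810 RPKM in the Nedd4-/- library and 0.349 RPKM in the Nedd4+/+ library. A read pair in a window is worth 0.0328 RPKM in the Nedd4-/- library and 0.0241 RPKM in the Nedd4+/+ library, so the window of Trim25 rested on 12.8 pairs in Nedd4-/- and 2.28 pairs in Nedd4+/+. The window of Zbp1 was at 0.456 RPKM in the Nedd4-/- library and 0.192 RPKM in the Nedd4+/+ library (0.93, counting interval -0.11 to 2.71), opposite in sign to the gene. The window of Pml was at 0.285 RPKM in the Nedd4-/- library and 0.204 RPKM in the Nedd4+/+ library (0.34, counting interval -1.06 to 2.03). Of the 19 members measured at gene and window, 13 had a lower gene level and a higher window level in Nedd4-/- (68.4%), where 59.8% of all 7158 genes measured at both did. The other windows were Xaf1 at 0.344 RPKM in the Nedd4-/- library and 0.110 RPKM in the Nedd4+/+ library (1.08), and those of Mx1 (0.83), Stat2 (0.74), Irf1 (0.66), Sp100 (0.53), Adar (0.42), Oas3 (0.38), Gbp2 (0.34), Dhx58 (0.26), Parp14 (0.26), Ddx58 (0.25) and Irf9 (0.23) on the higher side. Those of Isg20 (-0.05), Oasl1 (-0.19), Ifih1 (-0.22) and Eif2ak2 (-0.34) were on the lower side. Counting intervals lay wholly above 0 for Trim25, Mx2 and Bst2 and wholly below 0 for Trex1, and spanned 0 for the other 19 windows. The share of all windows with such intervals was not computed. Of 23 windows, 9 are reached by another annotated gene, and the lowest ratios were in this group. They were those of Trex1 at 1.18 RPKM in the Nedd4-/- library and 2.13 RPKM in the Nedd4+/+ library (-0.81), which reaches Atrip, and of Dtx3l at 0.806 RPKM in Nedd4-/- and 1.29 RPKM in Nedd4+/+ (-0.62), which reaches Parp9.

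The promoters were also searched for the letters of a GAS element, TTCNNNGAA, which read the same on both strands. This search was added after the levels were seen, and no test was made. A match was found in 9 of the 30 members with a promoter (30%), where 9.55% of all genes in the table had it. Of the 9, 8 had a mean of 1 RPKM or more, and their log2 ratios ran from -0.99 to -0.49 with a median of -0.56, all below the median of all genes. Of the 16 such members with a promoter but no GAS match, 10 lay below it, with a median of -0.35. Over the 556 other genes with a match and 1 RPKM or more the median was -0.32, as it was over the 6173 without. Of these other genes, 51.3% with a GAS match and 51.0% without lay below the median of all genes. For the ISRE core, the median was -0.43 over 10 members with a match and -0.54 over 14 without. Below the median of all genes were 6 of the 10 and 12 of the 14. Over other genes the medians with and without an ISRE match were -0.31 and -0.32. The stretches around the GAS matches of the 6 members with the highest mean level are given here as above, with the match in capitals.
Samhd1 (chr2:157135308-157135346, minus strand): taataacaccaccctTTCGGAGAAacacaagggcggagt
Bst2 (chr8:71537585-71537623, minus strand): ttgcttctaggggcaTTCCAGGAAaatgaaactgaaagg
Irf1 (chr11:53769909-53769947, plus strand): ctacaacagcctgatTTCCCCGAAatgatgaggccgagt
Ifi35 (chr11:101448404-101448442, plus strand): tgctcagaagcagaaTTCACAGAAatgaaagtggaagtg
Adar (chr3:89730725-89730763, plus strand): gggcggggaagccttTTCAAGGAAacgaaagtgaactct
Isg20 (chr7:78913336-78913374, plus strand): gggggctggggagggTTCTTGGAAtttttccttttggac
In Bst2 the GAS match runs into the ISRE matches printed above. Eif2ak2, Oas1a and Ifit2 were the others with a GAS match, and Bst2, Eif2ak2 and Oas1a had both kinds.

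Among the genes upstream of the members, all 12 of JAK-STAT signalling and all 7 other interferon regulatory factors averaged at least 1 RPKM, and 5 of 6 receptor genes and 18 of 21 sensors and adaptors did. The DNA sensor gene Mb21d1 was at 0.219 RPKM in the Nedd4-/- library and 0.146 RPKM in the Nedd4+/+ library. Tlr3, a receptor of double-stranded RNA, was at 0.103 RPKM in Nedd4-/- and 0.0780 RPKM in Nedd4+/+. None of the 19 interferon genes in the files reached 1 RPKM, with the highest at 0.670 RPKM in the Nedd4-/- library and 0.523 RPKM in the Nedd4+/+ library. Ifnb1, which encodes interferon beta, was at 0.232 RPKM in the Nedd4-/- library and 0.0155 RPKM in the Nedd4+/+ library. Its counting interval was wide, from 0.05 to 14.4. Among all genes averaging 0.1 to 1 RPKM, 84.8% had a log2 ratio above 0. Both chains of the type I receptor were lower in the Nedd4-/- library, where 92.7% of all 9405 genes were below 0 on the log2 ratio. Ifnar1 was at 4.22 RPKM in the Nedd4-/- library and 6.69 RPKM in the Nedd4+/+ library (-0.56, or -0.25 relative to all genes). Ifnar2 was at 3.96 RPKM in the Nedd4-/- library and 5.80 RPKM in the Nedd4+/+ library (-0.46, or -0.14 relative to all genes). Of the chains for interferon gamma, Ifngr1 was at 2.69 RPKM in the Nedd4-/- library and 3.81 RPKM in the Nedd4+/+ library (-0.38), and Ifngr2 at 11.6 RPKM in Nedd4-/- and 13.1 RPKM in Nedd4+/+ (-0.16). Il10rb, a chain of the lambda interferon receptor, had a log2 ratio of -0.52. Of 5 receptor genes with 1 RPKM or more, 0 were past the 2-fold rule and 4 lay below the median of all genes.

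Signal carriers differed among themselves. Of 12 genes of JAK-STAT signalling and its inhibitors, 8 were under the median of all genes and 1 was 2-fold lower. That was Socs3, a feedback inhibitor of cytokine receptors, at 3.04 RPKM in the Nedd4-/- library and 8.96 RPKM in the Nedd4+/+ library (-1.30). Stat3 (-0.64), the phosphatase gene Ptpn6 (-0.52) and the kinase gene Tyk2 (-0.49) followed Socs3. Of 7 other interferon regulatory factors and their binding partners, 6 lay below the median and 0 passed the rule. Irf4, a factor of B cell activation and plasma cells, was at 35.8 RPKM in the Nedd4-/- library and 72.1 RPKM in the Nedd4+/+ library (-0.99). By plain level, without pseudocount, Irf4 was 2.01-fold higher in Nedd4+/+. Irf2bp2 (-0.63), Irf2bp1 (-0.55) and the repressor gene Irf2 (-0.51) followed Irf4. Of 18 sensors and adaptors upstream of interferon, 13 lay below the median and 0 passed the rule, led by the kinase gene Irak1 (-0.55), the Toll-like receptor chaperone gene Unc93b1 (-0.51), Tmem173, which encodes STING (-0.50), and Irak4 (-0.50).

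Interferon-inducible genes outside the 40 lay evenly around the median of all genes. Of 98 such genes in the files, 65 had a mean of 1 RPKM or more, and 0 of these were 2-fold lower or higher. Their median log2 ratio was -0.31, equal to that of all genes to 2 decimals, with 32 below the median of all genes and 33 above. The furthest were Trim14 at 1.16 RPKM in the Nedd4-/- library and 2.81 RPKM in the Nedd4+/+ library (-0.82), BC006779 (-0.81), Trim30d (-0.81) and Trim30a (-0.72). The median of -0.52 over the 30 members and that of -0.31 over these 65 come from lists put together by hand, and the difference between the lists was not tested.

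**Figure D4:**
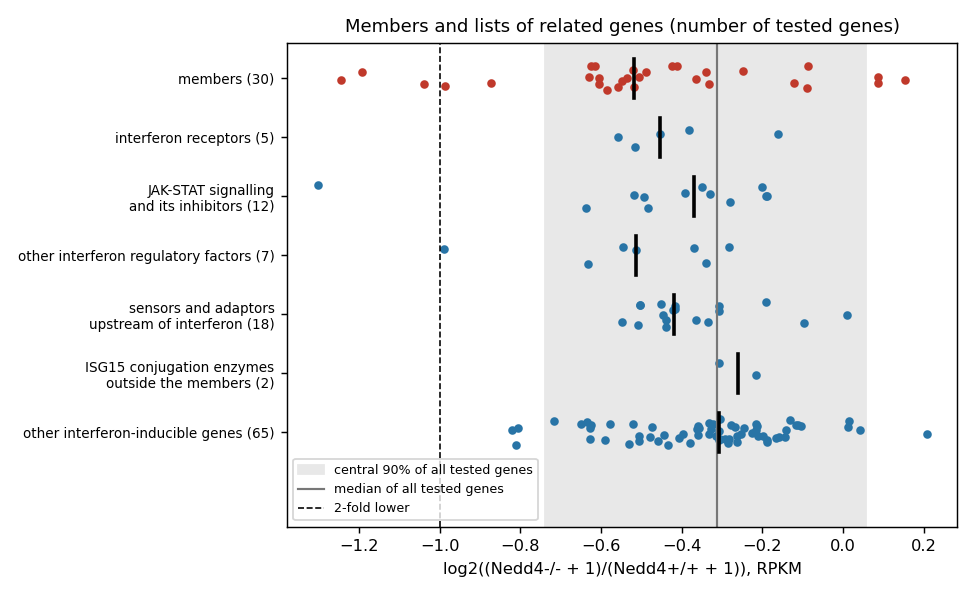
Log2 ratio of the members and of 6 lists of related genes, 1 point per gene averaging at least 1 RPKM, with the number of genes in brackets and the median of each list as a black bar. The members have a median of -0.52, close to the -0.51 of the other interferon regulatory factors, and the 65 other interferon-inducible genes lie around the median of all genes (grey line, -0.31).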

How the data were processed

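RNA depleted of ribosomal RNA was sequenced from 1 Nedd4-/- and 1 Nedd4+/+ library, grouped by title. Per the submitters' processing notes the authors used TopHat and Cufflinks with build mm9; versions and roles are not listed. Gene values were deposited as RPKM per the file headers. The deposited upstream column proved to be a ratio: multiplied by the gene's RPKM plus 0.0001 it gave whole read bases in a 1000-nt window in all 1460 low windows for Nedd4-/- and in 4387 of 4388 for Nedd4+/+ (tolerance 0.05 bases). That product is the upstream level used here, where the design had assumed a level. The same step gave the depth. The commonest base count was 202, read as a pair of 101-nt reads.

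Genes averaging at least 1 RPKM entered, with a pseudocount of 1 RPKM and a fixed 2-fold rule. Counting intervals use bases divided by 202, which need not be whole, with transcript lengths from GENCODE M21 (build GRCm38) for 39 of the 40 genes, all but Mx1. With these lengths 75.7% of 678 low genes in Nedd4-/- and 66.8% of 1167 in Nedd4+/+ gave whole bases, so some lengths may differ from those the authors used. That annotation served only for names, lengths and neighbours, so it gives no mm9 position. Promoters and their coordinates are those of RefSeq, build GRCm38.p6. The scripts were tested on simulated data.

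The members, lists, thresholds and motifs were chosen with earlier results of these data known. Named are all 40 members and, per list, the 4 largest ratios and the receptors; 1 gene that the rule takes is not reported here. Ifnb1, Uba7, Herc6 and Ube2l6 were named after their values were seen. Alternatives were other pseudocounts, minimum levels, scalings and a 1.5-fold rule. Python 3.11.15, numpy 2.4.6, pandas 2.3.3, scipy 1.17.1 and matplotlib 3.10.9 were used.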

Additional observations from a re-analysis of the deposited data

How the results depend on the processing

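The number of members at least 2-fold lower, 3 as reported, was 5 with a pseudocount of 0.1 RPKM (with Isg20 and Ddx58), 0 with 5 RPKM, 10 with a 1.5-fold rule (11.6% of all genes), 0 relative to the median of all genes and 0 with both libraries rescaled to the same sum of RPKM. It was 3 without any minimum and 3 when 5 RPKM was required, and none of these settings gave a member 2-fold higher. The share of all genes was computed only for the main setting, the 1.5-fold rule and the scaling to the median (0.223% lower). The median of all genes was -0.38 with a pseudocount of 0.1 RPKM and -0.18 with 5 RPKM. The median of the members was -0.31 with a pseudocount of 5 RPKM, -0.21 relative to all genes and -0.23 after rescaling. For the signalling genes it was -0.26, -0.11 and -0.11 under the same settings. For the other interferon-inducible genes it was 0.0056 relative to all genes and -0.027 after rescaling. Under either scaling 4 of the 30 members changed sign, relative to the median Irf7, Gbp2, Gbp3 and Usp18. Of the member windows, 4 were 2-fold higher as reported, 0 with a pseudocount of 1 RPKM, 7 with a minimum of 0.1 RPKM, 0 with a minimum of 1 RPKM and 1 relative to the median of all windows, where 2 were 2-fold lower. Shares of all windows were computed only for the main setting and for the scaling to their median. With a minimum of 1 RPKM the median of the 4 windows left was -0.19, opposite in sign to that reported, beside -0.28 over all windows. The cause of these shifts was not tested beyond what each setting does. No paired analysis was possible because each genotype has 1 library. Depth limits the low windows, where a few read pairs set a value.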
